A study of Mus musculus with 24 samples.

Results

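The genes described here are 10 genes of mouse chromosome 16 that flank a stretch of genes with raised transcript levels in kidneys of megabladder (mgb-/-) mice: Bcl6, Lpp and P3h2 before the stretch, and Atp13a5, Opa1, Hes1, Atp13a3, Lsg1, Xxylt1 and Acap2 towards or beyond its far end. They were chosen by name and by their position beside that stretch, with earlier results of these data known. Every probe whose transcript accession maps to one of them was taken. The array carried 12 such probes of 55681, 2 each for Lpp and Opa1 and 1 for each other gene, and the 10 genes are among 37147 named genes or transcripts on the array. The stretch itself, from Cldn1 to Atp13a4, was chosen earlier on these same kidneys, which also set the genes left as its flanks. Its edges and its contrast with the flanks are therefore described and not tested.

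Total RNA of 24 whole kidneys of male young adult mice was labelled with 1 dye and hybridized to 60K mouse arrays, 1 kidney per array. There were 6 control kidneys (genotype mgb+/+) and 18 mgb-/- kidneys, which ultrasound had graded as 7 with mild, 5 with moderate and 6 with severe hydronephrosis according to how much parenchyma was left. By the methods, all mice were in the fourth to the fifth week of life. The labels name no drug or surgery, and the grade is the state in which each kidney was found. Because the sample was the whole organ, fewer cells of a type and less RNA per cell cannot be told apart in any value below. Whether 2 of the kidneys came from 1 mouse is not given by the labels, so the p-values measure the spread between these kidneys.

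The megabladder mouse carries a transgene insertion and develops a bladder with defective smooth muscle, so that urine backs up into the kidneys from before birth. Chromosome 16 neighbours need not share a function, and a local change in their RNA shows first as a run of genes that move together. The flanking genes have unrelated roles: transcriptional repressors (Bcl6 and the Notch target Hes1), an adhesion protein (Lpp), enzymes of collagen and of Notch modification (P3h2 and Xxylt1), transport ATPases (Atp13a3 and Atp13a5), and proteins of mitochondria (Opa1), ribosomes (Lsg1) and membrane traffic (Acap2).

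The stretch ends with Atp13a4, and the next gene is Opa1, which is transcribed away from it. In RefSeq (GRCm38.p6) the outer start site of Atp13a4 and the start of Opa1 lie 34.5 kb apart. The 250 bases before these starts are shown because they are the facing control regions on either side of the edge, and those before the outer start of Lpp because Lpp alone held a probe that passed the comparison of all mgb-/- with control kidneys. The Atp13a4 sequence is chr16:29544865-29545114 (minus strand), that of Opa1 is chr16:29579084-29579333 (plus strand) and that of Lpp is chr16:24393100-24393349 (plus strand). Each runs 5′ to 3′ in the direction of its gene, and capitals mark GC boxes (GGGCGG or CCGCCC, either strand) and CCAAT boxes (CCAAT or ATTGG, either strand).
Atp13a4: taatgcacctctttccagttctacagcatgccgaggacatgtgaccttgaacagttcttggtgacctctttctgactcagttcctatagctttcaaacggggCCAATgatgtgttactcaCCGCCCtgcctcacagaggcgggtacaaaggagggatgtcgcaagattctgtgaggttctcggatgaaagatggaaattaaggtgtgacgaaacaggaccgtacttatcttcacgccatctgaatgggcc
Opa1: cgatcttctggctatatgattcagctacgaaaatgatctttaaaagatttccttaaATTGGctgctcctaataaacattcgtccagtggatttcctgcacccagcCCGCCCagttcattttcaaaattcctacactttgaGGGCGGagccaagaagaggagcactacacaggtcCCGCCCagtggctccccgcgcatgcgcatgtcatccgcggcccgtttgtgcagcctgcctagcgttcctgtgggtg
Lpp: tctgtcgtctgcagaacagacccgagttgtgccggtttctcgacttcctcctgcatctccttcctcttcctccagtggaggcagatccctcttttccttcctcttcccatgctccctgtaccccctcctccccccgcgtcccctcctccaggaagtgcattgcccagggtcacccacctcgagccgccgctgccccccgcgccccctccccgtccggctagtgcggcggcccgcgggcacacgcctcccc
The Opa1 window held 3 GC boxes and 1 CCAAT box, the Atp13a4 window 1 of each, and the Lpp window none. Of 32851 RefSeq windows of the same length, 32.7% held a GC box and 33.8% a CCAAT box. The GC share was 52.0% for Opa1, 49.2% for Atp13a4 and 67.6% for Lpp, against a median of 52.4%. These matches are a description of the letters only. RefSeq windows were matched for 7 of the 10 genes, and those of P3h2, Hes1 and Atp13a3 are not shown.

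Levels are given as log2 of the processed signal minus the 75th percentile of the same array, called the log2 scaled signal, so 0 is the brightness of that percentile. A gene was tested if 5 or more arrays had one of its probes well above background, and its brightest such probe stands for it. Of the 10 genes, 9 were tested, with 11 of the 12 probes. The exception was Atp13a5, a transport ATPase, whose only probe was not well above background on any of the 24 arrays. Its signal ran from -8.05 to -5.94 in control and from -8.21 to -5.87 in mgb-/- kidneys, so no direction can be read for it. By RefSeq gene order Atp13a5 lies inside the stretch, directly before Atp13a4, and not beyond its edge as the other 6 genes of that side do.

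None of the 9 tested flanking genes passed the comparison of all 18 mgb-/- with the 6 control kidneys in limma (adjusted p under 0.05 after Benjamini-Hochberg over all genes), where 3731 of 27958 genes did (13.3%). At an unadjusted p under 0.05 there were 3 of 9, Lpp, Opa1 and Hes1, against 29% of all genes. The log2 changes of the 9 ran from -0.59 for Bcl6 to 0.33 for Hes1, with a median of 0.08 beside 0.01 for all genes, and the median of their sizes was 0.12 beside 0.24. For 8 of the 9 the 95% interval left out a 2-fold change in either direction, Bcl6 being the exception. No flanking gene had mgb-/- and control kidneys that did not overlap, as 0.837% of all genes had.

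Inside the stretch the values were of another order. Of its 13 genes 10 were tested, 6 passed as higher and 1 as lower, with a median log2 change of 1.28. Gmnc passed the filter on dim probes through the mgb-/- kidneys alone, being well above background on 17 of those 18 arrays and on 0 of 6 control arrays. Against the lowest signal well above background on the control arrays it was at least 5.02-fold higher. Without Gmnc 5 of 9 tested genes passed as higher and 1 as lower, with a median of 0.93. Cldn16, Tmem207 and Ccdc50 exceeded their control means in all 18 mgb-/- kidneys. Ccdc50 changed by 1.63 (SE 0.08, limma adjusted p = 1.21e-11), the lowest adjusted p of any gene. These values chose the stretch and carry no test of it.

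**Figure D1:**
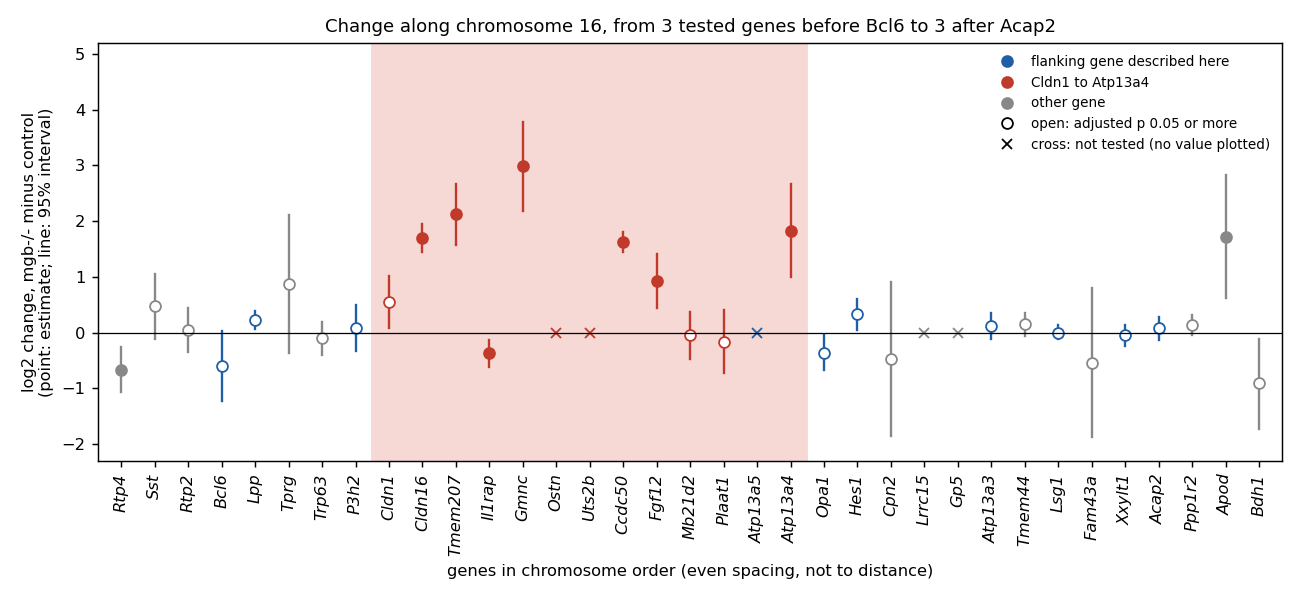
Log2 change (mgb-/- minus control, vertical axis) of each gene in chromosome order, with 95% intervals as lines, for the 9 tested flanking genes (blue), the genes from Cldn1 to Atp13a4 (red, shaded) and other genes nearby (grey); filled points had an adjusted p under 0.05 and crosses mark untested genes without a value. The flanking genes lie between -0.59 and 0.33 with open points, while 5 genes of the shaded run are past 2-fold, of which Gmnc has a control level not well above background.

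On the near side the last flanking gene was P3h2, which hydroxylates prolines of basement membrane collagen, and the first gene of the stretch was Cldn1, a tight junction claudin. P3h2 had a log2 change of 0.08 (SE 0.20, 95% interval -0.32 to 0.49, limma adjusted p = 0.823). Cldn1 changed by 0.55 (SE 0.23) with a limma adjusted p of 0.103, and the next gene, Cldn16, a claudin of the thick ascending limb, rose by 1.70 (SE 0.12). Within each kidney, the adjacent pair Cldn1 minus P3h2 ran from -4.70 to -4.03 in control and from -5.09 to -1.23 in mgb-/- kidneys. These ranges overlap. Cldn16 minus P3h2 lay between -1.30 and -1.09 in control and between -0.18 and 1.55 in mgb-/- kidneys, which do not overlap. Cldn16 is among the genes whose values chose the stretch, so these differences describe the kidneys and test no edge.

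On the far side Atp13a4, the last gene of the stretch, rose by 1.83 (SE 0.41, limma adjusted p = 0.00668) and Opa1, the next gene, had a log2 change of -0.36 (SE 0.15). Of the 18 mgb-/- kidneys 16 exceeded the control mean of Atp13a4 and 2 that of Opa1. Atp13a4 minus Opa1 averaged -5.27 ± 0.48 (SD, n = 6) over the controls and -3.08 ± 1.11 (SD, n = 18) over the mgb-/- kidneys, with ranges of -5.87 to -4.47 and -6.19 to -1.87 that overlap. The run was not even up to this edge: Mb21d2 (-0.05) and Plaat1 (-0.16), which precede Atp13a5, did not pass, and Il1rap further inside was lower (-0.37, SE 0.12, limma adjusted p = 0.0368).

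Counting every protein-coding gene of the flanks by RefSeq order, and not just those named, gave the same count of 0. From Bcl6 to P3h2 there were 5 genes, all tested, with a median of 0.08, Tprg (0.87, SE 0.60) and Trp63 (-0.10, SE 0.15) being the genes besides the named ones. Trp63 had a dimmer second probe at 1.39 (SE 0.47) with a limma adjusted p of 0.052 per probe. From Opa1 to Acap2 there were 11 genes, 9 of them tested, with a median of 0.00, none of which passed at an adjusted p under 0.05, as 19.1% of the tested chromosome 16 genes outside the stretch did. Fam43a in this run (-0.54, SE 0.65) rested on severe replicate 4, an array on which 429 probes fell over 4 log2 units below every other array and no other array had any. Further out, Rtp4 before Bcl6 fell by 0.66 (SE 0.19) and Apod after Acap2 rose by 1.72 (SE 0.53), while the gene next to each end, Rtp2 (0.05) and Ppp1r2 (0.13), did not pass.

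Kidney by kidney, the mean deviation of the 9 flanking genes from their control means lay between -0.29 and 0.18 in mgb-/- kidneys, with a median of 0.00, and between -0.13 and 0.13 in control kidneys. It was above 0 in 9 of 18 mgb-/- kidneys. The same mean over the 10 tested genes of the stretch lay between 0.65 and 1.52 and was above 0 in 18 of 18, and without Gmnc it lay between 0.38 and 1.33.

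**Figure D2:**
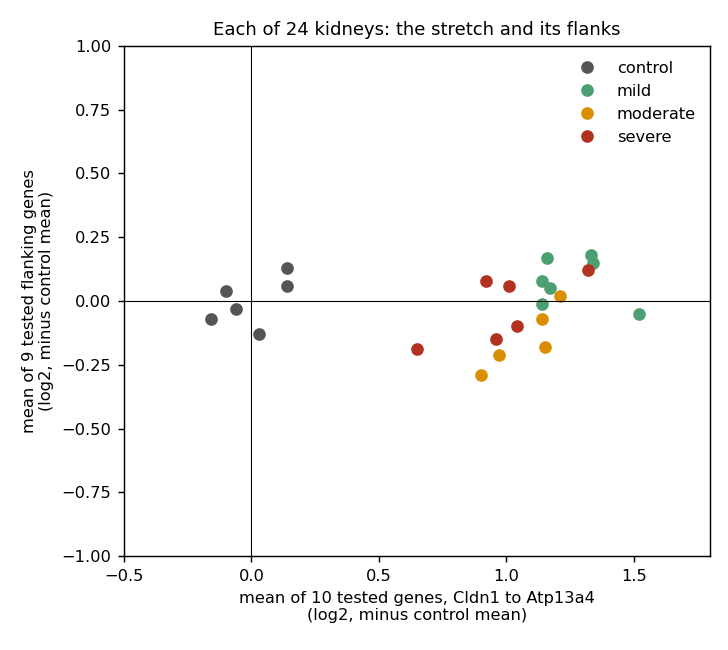
Mean deviation from the control mean (log2) of the 9 tested flanking genes (vertical) and of the 10 tested genes from Cldn1 to Atp13a4 (horizontal), on equal scales, 1 point per kidney coloured by grade. The mgb-/- kidneys move right, to between 0.65 and 1.52, and stay within -0.29 to 0.18 on the vertical axis.

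Lpp, a LIM domain protein of focal adhesions that is rich in smooth muscle, had the lowest adjusted p of the 9. Its brighter probe had a lowest, median and highest log2 scaled signal of 1.88, 2.05 and 2.42 in control, 2.05, 2.28 and 2.52 in mild, and 2.18, 2.25 and 2.43 in severe kidneys, and the moderate kidneys were at 2.25, 2.25, 2.20, 2.60 and 2.27. The groups overlapped: control replicate 5 was the highest control, and mild replicate 6 (2.05) was also below control replicates 1 and 2 (2.09 each). Of the 18 mgb-/- kidneys, 17 were above the control mean. The change was 0.23 (SE 0.08, 95% interval 0.06 to 0.39, limma adjusted p = 0.0581).
The dimmer Lpp probe ran from -0.25 to 0.48 in control kidneys and from 0.18 to 0.75 in mgb-/- kidneys, with medians of 0.10 and 0.48. All 18 mgb-/- kidneys were above the control mean and 8 were above the highest control kidney. It was higher by 0.39 (SE 0.09, 95% interval 0.20 to 0.58, limma adjusted p = 0.0111 over 38834 probes) and was the 1 of 11 flanking probes that passed, where 11.7% of all probes did. Within the 3 slides the difference was 0.24, 0.37 and 0.57 for this probe and 0.32, 0.05 and 0.31 for the brighter one. Of 5 smooth muscle markers listed, Acta2 and Tagln passed as higher between the same groups (1.20 and 1.28), beside 13.3% of all genes that passed. Cnn1 (0.97), Myh11 (0.47) and Des (0.47) did not pass. All 5 were well above background. The mean level of the list lay between 0.33 and 1.32 in control and between 0.34 and 2.72 in mgb-/- kidneys. Across the 18 mgb-/- kidneys r between the brighter Lpp probe and this mean was 0.22. Their part in the Lpp values was not tested. The other zyxin family members, Zyx (0.11, SE 0.17) and Trip6 (0.03, SE 0.10), did not pass.

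In the test per gene, where the brighter probe stands for it, Lpp passed without control replicate 5 (0.30, limma adjusted p = 0.0186), without mild replicate 6 (0.24, 0.0445) and with the slide as a block (0.23, 0.0476). In the test per probe the brighter Lpp probe passed in the first of these settings and not in the other two. With arrays centred on their median it was at 0.07 (limma adjusted p = 0.78) and the dimmer probe at 0.23 (0.246), a scaling that moved the median of all genes from 0.01 to -0.15.

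Opa1, a GTPase that fuses the inner membranes of mitochondria, was the gene next to the edge. Its brighter probe had a lowest, median and highest log2 scaled signal of 3.46, 3.57 and 3.75 in control, 3.17, 3.35 and 3.49 in mild, and 2.29, 3.10 and 3.62 in severe kidneys, and the moderate kidneys were at 3.21, 3.40, 2.80, 3.40 and 3.65. Of the 18 mgb-/- kidneys 15 were below the lowest control kidney, with the lowest values in severe replicates 5 and 1. Over all mgb-/- kidneys the change was -0.36 (SE 0.15, 95% interval -0.67 to -0.05, limma adjusted p = 0.107), and the dimmer probe gave -0.25 (SE 0.12, adjusted p = 0.185).
In severe kidneys Opa1 fell by 0.56 (SE 0.18, 95% interval -0.92 to -0.19, limma adjusted p = 0.0366). The dimmer Opa1 probe did not pass there (-0.37, SE 0.15, limma adjusted p = 0.0881). The differences within the 3 slides, all mgb-/- against control, were -0.25, -0.43 and -0.41. The severe call of Opa1 was lost with quantile normalization (-0.40, limma adjusted p = 0.0611), without a filter on dim probes (-0.56, 0.0524) and with a fit of only the groups compared (-0.56, 0.125). It was also lost when any of 7 kidneys was left out (control replicates 2, 3, 4 and 5, severe replicates 1, 2 and 5), with limma adjusted p-values from 0.0553 to 0.0908, and the value without severe replicate 5 was -0.41.
All 6 genes listed for mitochondrial fusion, fission and inner membrane shape had values below 0. They ran from -0.36 for Opa1 to -0.06 for Dnm1l, which acts in fission. None passed, beside 13.3% of all genes, whose median log2 change was 0.01. Mfn1, which fuses outer membranes, was at -0.27 (SE 0.12), and the protease Yme1l1, which cuts Opa1, at -0.29 (SE 0.11, limma adjusted p = 0.0975).

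Opa1 varied between mgb-/- kidneys with the markers of the proximal tubule, the mitochondria-rich segment that reabsorbs most filtrate. This pair had the highest r of the 72 between the 9 tested flanking genes and 8 marker lists, and is described for that reason. The mean level of Slc34a1, Lrp2, Slc5a2, Aqp1 and Slc22a6 lay between 7.17 and 7.45 in control and between 5.19 and 7.49 in mgb-/- kidneys. All 5 were well above background and none passed, beside 13.3% of all genes. Across the 18 mgb-/- kidneys Pearson r between Opa1 and this mean was 0.92 (Spearman rho 0.82), and 0.85 over the 16 left without the 2 kidneys farthest from the median of the markers. Without the severe kidneys it was 0.84 (n = 12), and within the slides 0.92, 0.99 and 0.96 (n = 6 each), of which that on slide 1 was 0.46 without its 2 farthest kidneys. In the 6 control kidneys it was 0.46 (Spearman rho 0.26), and 0.29 without the 2 farthest. Both values of a kidney come from 1 array and share its scaling, so r is a description, and the part of proximal tubule content in the Opa1 values was not tested.

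P3h2 had its highest group mean in mild kidneys and its widest spread in moderate and severe ones. Its lowest, median and highest log2 scaled signals were 1.47, 1.63 and 1.79 in control, 1.74, 2.07 and 2.22 in mild, and 0.57, 1.66 and 2.08 in severe kidneys, and the moderate kidneys were at 0.97, 1.21, 1.65, 1.24 and 2.07. Of the 18 mgb-/- kidneys 9 were above the highest and 5 below the lowest control kidney, and 6 of the 7 mild kidneys were among those above. The SD was 0.13 (n = 6) in control, 0.17 (n = 7) in mild, 0.43 (n = 5) in moderate and 0.56 (n = 6) in severe kidneys.
P3h2 did not pass in any grade: 0.42 (SE 0.20, limma adjusted p = 0.223) in mild, -0.20 (SE 0.22, 0.658) in moderate and -0.07 (SE 0.21, 0.842) in severe kidneys. Severe minus mild was -0.49 (SE 0.20, limma adjusted p = 0.357). Of its family, P3h4, a partner of lysyl hydroxylase, rose by 0.72 (SE 0.20, limma adjusted p = 0.0231), and P3h1 (0.07), P3h3 (-0.03) and Crtap (-0.26) did not pass.

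Among the 8 marker lists P3h2 had its highest r, across mgb-/- kidneys, with that of the thick limb and distal tubule, and this list was chosen for it. Its r was -0.68 with smooth muscle, 0.63 with podocyte and 0.60 with proximal tubule markers. The mean level of Umod, Slc12a1 and Slc12a3 lay between 4.68 and 4.98 in control and between 3.69 and 5.41 in mgb-/- kidneys. All 3 were well above background and none passed, beside 13.3% of all genes. Across the 18 mgb-/- kidneys r between P3h2 and this mean was 0.91 (Spearman rho 0.86), and 0.90 over the 16 left without the 2 farthest kidneys. By grade it was 0.96 in severe (n = 6) and 0.25 in mild kidneys (n = 7), and in control kidneys it was 0.31 (n = 6), or -0.25 without the 2 farthest. Within slides 1 and 3 it was 0.91 and 0.87, while on slide 2 it was 0.97 with all 6 kidneys and -0.09 without the 2 farthest. These are descriptions of values from shared arrays, and the part of tubule content in the P3h2 values was not tested.

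**Figure D3:**
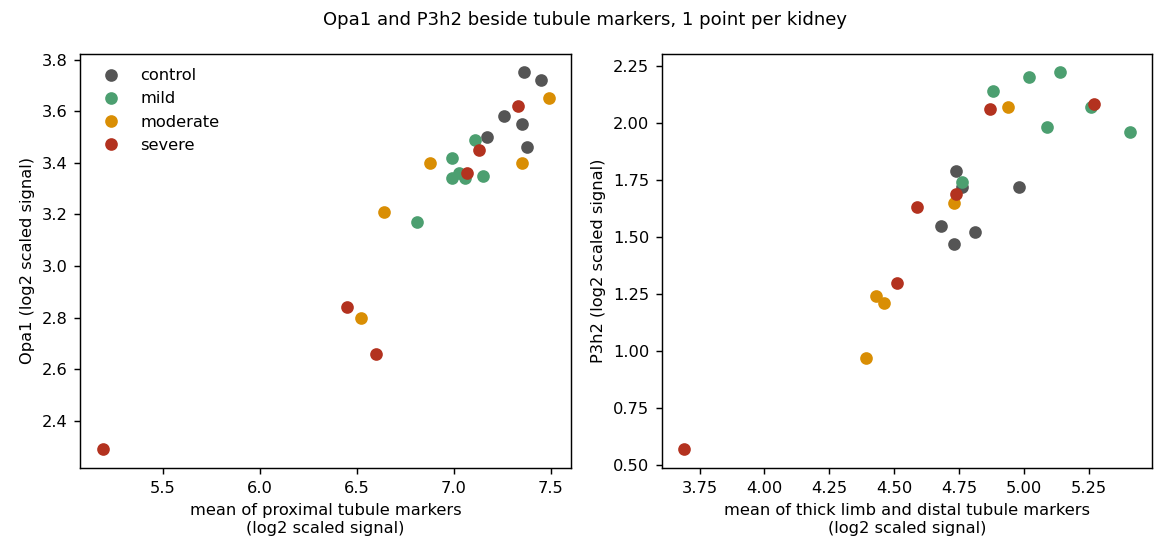
Log2 scaled signal of Opa1 against the mean of 5 proximal tubule markers (left) and of P3h2 against the mean of 3 thick limb and distal tubule markers (right), 1 point per kidney coloured by grade. Severe replicate 5 is lowest on all 4 axes, at 2.29 for Opa1 and 0.57 for P3h2, and the other kidneys tend to rise on both axes of each panel.

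Hes1, the basic helix-loop-helix repressor that Notch switches on, was the other gene near the edge. Its lowest, median and highest log2 scaled signals were -1.22, -1.12 and -0.94 in control, -1.02, -0.86 and -0.37 in mild, and -0.97, -0.57 and -0.14 in severe kidneys, and the moderate kidneys were at -0.79, -1.47, -0.50, -1.03 and -0.95. Of the 18 mgb-/- kidneys 17 were above the control mean and 12 above the highest control kidney, with moderate replicate 2 below all controls. The change was 0.33 (SE 0.14, 95% interval 0.05 to 0.61, limma adjusted p = 0.109).
In severe kidneys Hes1 rose by 0.53 (SE 0.16, 95% interval 0.20 to 0.85, limma adjusted p = 0.0272). That call was lost when any of 5 kidneys was left out (control replicates 1 and 3, severe replicates 2, 4 and 5), with limma adjusted p-values from 0.0528 to 0.0653. It was also lost with arrays centred on their median (0.35, adjusted p = 0.187), in the authors' table (0.38, adjusted p = 0.0637) and with a fit of only the groups compared (0.53, adjusted p = 0.0612). The highest Hes1 value of all 24 kidneys (-0.14) was that of severe replicate 4, the array with 429 probes far below every other. Without that kidney the severe change was 0.44. Over all mgb-/- kidneys Hes1 passed without moderate replicate 2 (0.37, limma adjusted p = 0.0403), and the differences within the 3 slides were 0.41, 0.17 and 0.41.
Among 16 Notch pathway genes, all tested, 2 passed (12.5%, beside 13.3% of all genes), which is near the share of all genes. Both rose: the receptor Notch3 (0.61, SE 0.17, limma adjusted p = 0.0214) and the ligand Jag1 (0.42, SE 0.13, adjusted p = 0.0399). The list had a median of 0.21, beside 0.01 for all genes. Of the targets besides Hes1, Nrarp (0.41, SE 0.20), Hey2 (0.39, SE 0.22), Heyl (0.32, SE 0.22) and Hey1 (0.16, SE 0.39) did not pass. Hes5 (-0.06, SE 0.28) and the DNA-binding partner Rbpj (0.08, SE 0.08) did not pass either. Hey2 and Hes5 were dim, with control means of -5.81 and -5.17, and were well above background on 11 and 18 arrays. The mean level of 5 urothelial markers lay between -0.55 and 1.11 in control and between 3.09 and 4.88 in severe kidneys. All 5 were well above background and 1 passed over all mgb-/- kidneys (Upk1b, 2.09), beside 13.3% of all genes. Across the 18 mgb-/- kidneys r between Hes1 and this mean was 0.27. It was larger in size with the proximal tubule (-0.50) and collecting duct markers (0.46). The part of these markers in the Hes1 values, and that of the smooth muscle markers given beside Lpp, was not tested.

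Bcl6, a zinc finger repressor of transcription, was the outermost gene of the near side and the most variable of the 9. Its lowest, median and highest log2 scaled signals were 2.49, 3.45 and 4.87 in control, 2.07, 3.25 and 3.93 in mild, and 2.20, 2.96 and 3.48 in severe kidneys, and the moderate kidneys were at 2.29, 1.92, 2.82, 2.01 and 2.67. Control replicate 1 was the highest of all 24 kidneys, and 3 of 18 mgb-/- kidneys exceeded the control mean. The change was -0.59 (SE 0.30, 95% interval -1.22 to 0.03, limma adjusted p = 0.197), and without control replicate 1 it was -0.32. In moderate kidneys it was -1.15 (SE 0.35, 95% interval -1.87 to -0.43, limma adjusted p = 0.0912). Its pooled SD within groups was 0.59, beside a median of 0.40 over all genes tested.
Of the corepressors and partners listed with Bcl6, Bcor rose by 0.25 (SE 0.07, limma adjusted p = 0.0151), while Ncor1 (-0.25, SE 0.09) and the paralogue Bcl6b (-0.26, SE 0.29) did not pass.

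The 4 outer genes of the far side had log2 changes from -0.05 to 0.12. Lsg1, a GTPase that releases an export factor from the large ribosomal subunit, ranged from 2.13 to 2.29 in control and from 1.99 to 2.39 in mgb-/- kidneys, with a change of 0.00 (SE 0.06, 95% interval -0.12 to 0.13). Its pooled SD within groups was 0.08, and 0.1% of all genes tested had a lower one. None of the 5 genes listed for late maturation of that subunit passed (range -0.17 to 0.11), beside 13.3% of all genes.
Xxylt1, which extends the sugar on Notch EGF repeats with xylose, ranged from -0.99 to -0.50 in control and from -1.16 to -0.43 in mgb-/- kidneys, with a change of -0.05 (SE 0.09, 95% interval -0.24 to 0.13). Of 9 genes that glycosylate such repeats 2 passed (22.2%, beside 13.3% of all genes). Gxylt1, which adds the preceding xylose, rose by 0.27 (SE 0.08, limma adjusted p = 0.021) and Eogt fell by 0.43 (SE 0.13, adjusted p = 0.0272).
Acap2, which turns off the small GTPase Arf6 at membranes, ranged from 1.13 to 1.83 in control and from 1.31 to 1.99 in mgb-/- kidneys (change 0.08, SE 0.10, 95% interval -0.13 to 0.29). Its relatives Acap1 (-0.02) and Acap3 (-0.09) did not pass.
Atp13a3, a polyamine transporter of the P5 ATPase family, ranged from -0.12 to 0.25 in control and from -0.29 to 0.72 in mgb-/- kidneys (change 0.12, SE 0.12, 95% interval -0.12 to 0.36). Its paralogue Atp13a4 was the 1 gene of 4 tested in that family that passed (25%, beside 13.3% of all genes). Atp13a4 lies inside the stretch that was chosen on these kidneys, so this count is no result about the family. Atp13a1 (-0.33, SE 0.14) and Atp13a2 (-0.09, SE 0.18) did not pass.

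**Figure D4:**
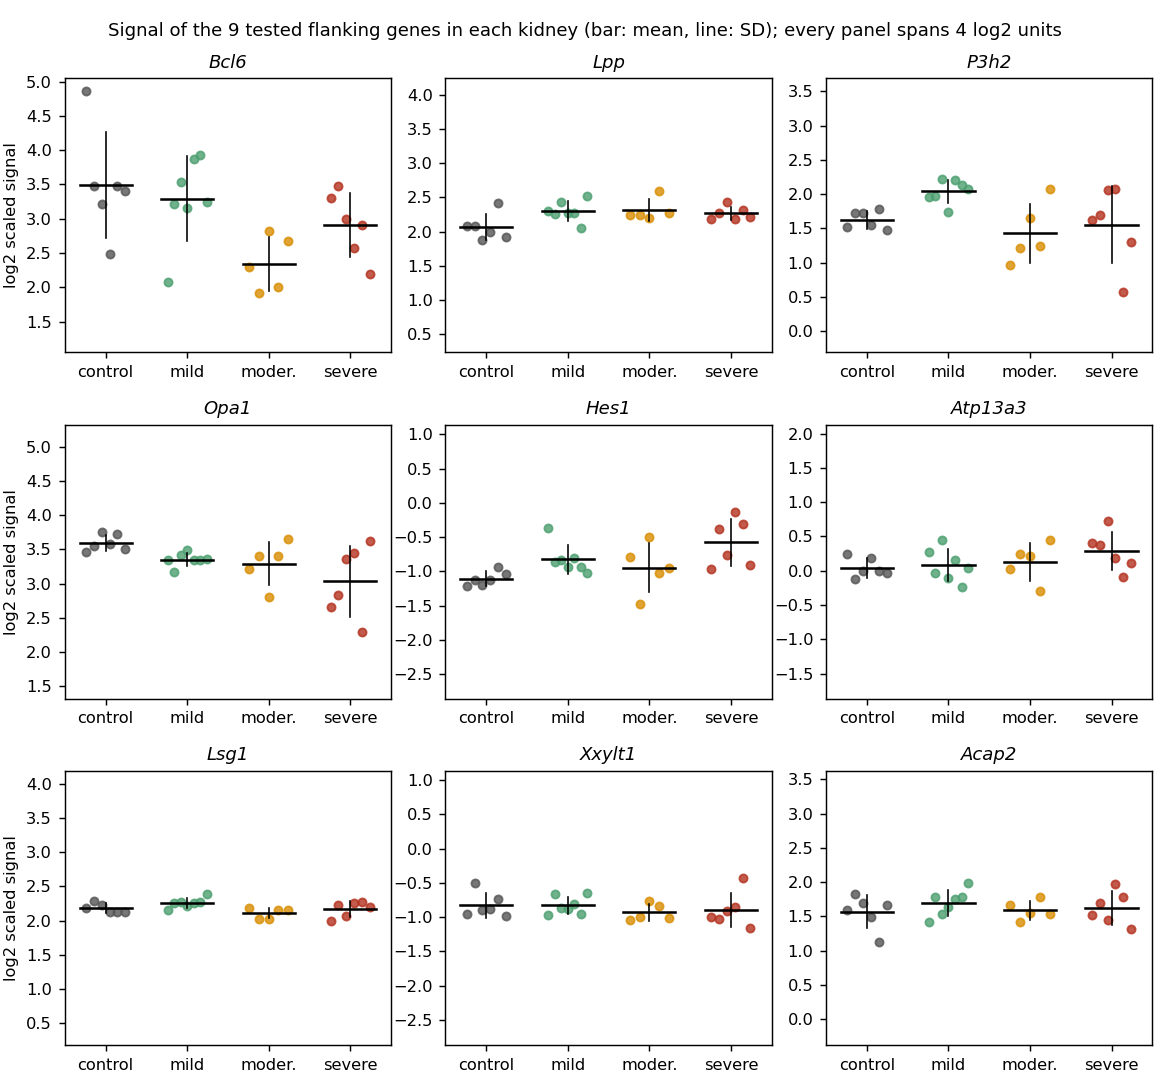
Log2 scaled signal (vertical axis, every panel spanning 4 units) of the 9 tested flanking genes in 24 kidneys, 1 point per kidney grouped by grade, with the group mean as a bar and the SD as a line. The group means of Lsg1 run from 2.11 to 2.26, Bcl6 spreads from 1.92 to 4.87, and Opa1 and P3h2 widen from SDs of 0.12 and 0.13 in control to 0.52 and 0.56 in severe kidneys.

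By grade, with the same 6 control kidneys in all 3 comparisons, 0 of 9 flanking genes passed in mild (6.02% of all genes), 0 of 9 in moderate (1.2%) and 2 of 9 in severe kidneys (16.1%), Opa1 lower and Hes1 higher. At an unadjusted p under 0.05 in limma there were 2 of 9 in mild (Lpp and P3h2, beside 21.4% of all genes), 2 in moderate (Bcl6 and Lpp, beside 18.4%) and 2 in severe kidneys (beside 31.8%). Per probe 3 of 11 passed in severe kidneys (14.3% of all probes), the third being the dimmer Lpp probe at 0.39 (SE 0.12, limma adjusted p = 0.0289). Lpp itself had nearly equal values in the 3 grades, 0.24, 0.24 and 0.20.
Between severe and mild kidneys 0 of 9 passed (0.587% of all genes, with 1 of 9 at an unadjusted p under 0.05 in limma, P3h2, beside 11.1% of all genes). On the slope over the 3 grades within mgb-/- kidneys 0 of 9 passed (0.232%), with 1 of 9 at an unadjusted p under 0.05 in limma, P3h2 at -0.25 per grade (SE 0.12), beside 8.64% of all genes. The difference between severe and mild was 0.24 (95% interval -0.07 to 0.56) for Hes1 and -0.31 (-0.67 to 0.04) for Opa1, so the calls in severe kidneys were not shown to differ from the mild values.

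**Figure D5:**
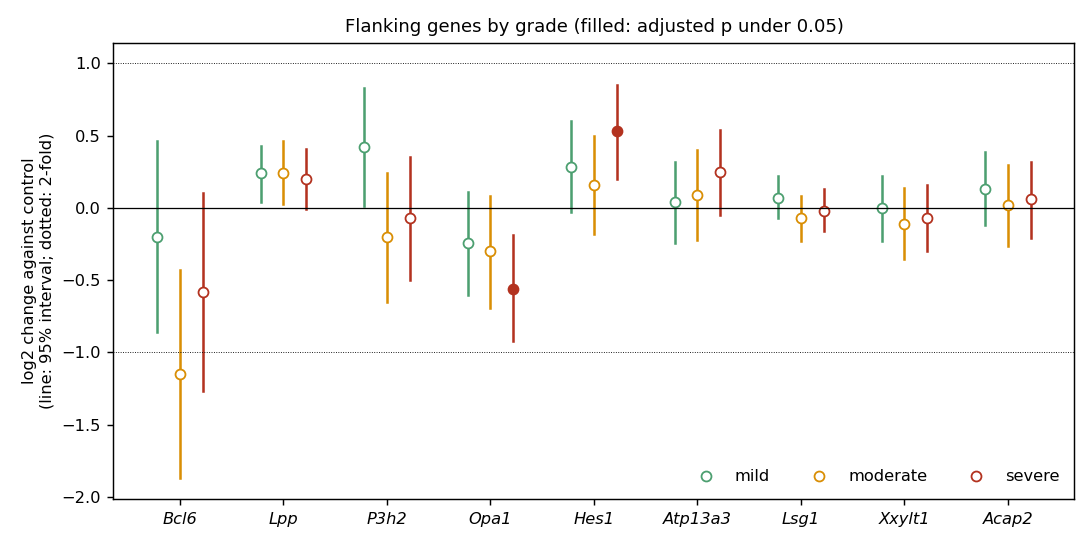
Log2 change against control (vertical axis) with 95% intervals for the 9 tested flanking genes in mild, moderate and severe kidneys; filled points had an adjusted p under 0.05 and dotted lines mark 2-fold. The filled points are Opa1 (-0.56) and Hes1 (0.53) in severe kidneys, and the intervals of the 4 outer genes of the far side all contain 0.

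After centring each gene on its group means, r between pairs of them over 24 kidneys ran from -0.49 (Opa1 and Xxylt1) to 0.66 (Lsg1 and Acap2), and that of the neighbours Opa1 and Hes1 was -0.28. The genes most like Opa1 among all tested were Atp6v1e1, a proton pump subunit, and Mrpl27, a mitochondrial ribosomal protein (r = 0.96 each). Those most like P3h2 were 1700028J19Rik (0.93) and the kallikrein Klk1b22 (0.90), those most like Lpp the ribosomal protein genes Rpl13 (0.84) and Rplp2 (0.78), and those most like Hes1 were Prickle1 (0.84) and Foxd2 (0.82). Bcl6 had no gene above 0.70 (Fank1 and Ahdc1). For Atp13a3 they were Inpp5f and Gbf1 (0.87 each), for Lsg1 Rps7 (0.81), for Xxylt1 Phldb1 (0.85) and Map4 (0.84), and for Acap2 Tent2 (0.89) and Itsn2 (0.87). These genes had the highest r to each flanking gene of 27958 tested, and the values share their arrays.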

How the data were processed

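Total RNA of 24 whole kidneys was measured on 1-colour arrays, on 3 slides of 8 (2 control and 6 mgb-/- kidneys each). The authors deposited the scanner output of each array (Agilent Feature Extraction 10.10, per the labels), whose processed signal is an intensity with background subtracted and no scaling between arrays, and a second table of whole-number intensities, normalized by a method not given in the sources used here. The mean signal was not used here, so normexp started from the median signal. Background subtraction makes dim probes uncertain, and scaling to the 75th percentile assumes that this point is shared by all kidneys.

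The processed signal was put on the log2 scale minus the array's 75th percentile (496 to 968 units). Outlier spots were left out, spots of a probe averaged, and a probe was kept if 5 or more arrays had it well above background (38834 of 55681). That share was 55.1% to 70.7% per array. No spot was saturated, and precision is limited by how many arrays there are. On severe replicate 4 the scanner software had marked 660 spots as outliers (102 to 261 elsewhere). Through RefSeq accessions 26762 probes were named, and 28919 kept their accession. RefSeq (GRCm38.p6) gave names, gene order and promoter windows, since the array was designed on another build.

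Fits used limma 3.58.1 in R 4.3.3 (2 groups, or 4 for grades), with Benjamini-Hochberg adjustment over all genes or probes. A gene passed at an adjusted p under 0.05. The text names the 10 genes, the genes between and next to them (3 each side), the 2 genes most like each, and members of fixed function and marker lists, of which a few items are not reported here. Members and lists were chosen with earlier results of these data known. The marker Cd68 had no named probe. Leukocyte, endothelial and podocyte markers did not pass (0 of 4, 0 of 3 and 0 of 3), beside 13.3% of all genes. Aqp2 of 2 collecting duct markers was higher (0.91). Replicate numbers did not pair kidneys: of 33 pairs of the same number in different groups, 10 deviated together (r over 0.1). Alternatives were other scalings and backgrounds, the authors' table, other filters, slide and replicate blocks, array weights, the mean of a gene's probes, and leaving out each kidney. The fits were tested on simulated data.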

Additional observations from a re-analysis of the deposited data

Results flagged for a closer look

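Among 44 sets of values (11 flanking probes in 4 groups), 4 held a kidney that stood apart from the rest of its group by Dixon's test, and chance gives about 1 in 20. On the brighter Lpp probe, moderate replicate 4 was at 2.60, with its nearest kidney at 2.27. On the dimmer Opa1 probe, severe replicate 5 was at 1.08, with its nearest at 1.75, and the same kidney was lowest on the brighter probe. For Hes1, mild replicate 1 was at -0.37, with its nearest at -0.81. For Bcl6, the same mild replicate 1 was at 2.07, with its nearest at 3.16. No flanking gene passed between severe and mild kidneys or on the slope over the grades. Moderate kidneys were not tested against mild or severe ones. In no flanking gene did every kidney of 1 grade lie above and every kidney of another below the control mean.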

How the results depend on the processing

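No flanking gene that passed in the main setting changed direction under any alternative run. Over all mgb-/- kidneys Lpp and Hes1 stayed above 0 and Opa1 and Bcl6 below 0 under all 36 alternatives, whereas Lsg1, Xxylt1, P3h2, Atp13a3 and Acap2 lay on both sides of 0, between -0.21 and 0.28. The count of flanking genes that passed, 0 of 9, became 1 (Lpp) with quantile normalization, the authors' table, the filter on all arrays, the slide as a block, the mean of a gene's probes and an adjusted p under 0.1, and 3 with array quality weights (Lpp 0.30, Opa1 -0.29, Hes1 0.30), which also raised all passing genes from 3731 to 8550 (5826 at an adjusted p under 0.1). Leaving out single kidneys gave 0 to 1 flanking genes, 1751 to 4702 genes in all and 1 to 2 flanking probes. The flanking probes that passed, 1 of 11, became 2 with quantile normalization, the authors' table, the filter on all arrays and an adjusted p under 0.1, 5 with weights and 0 with median scaling. In severe kidneys the 2 genes became 1 with median scaling (Opa1) or without a filter on dim probes (Hes1), 4 with weights and 0 with only the groups compared, and 0 to 2 without single kidneys. The count stayed at 2 with quantile normalization, where Lpp passed and Opa1 did not (-0.40, adjusted p = 0.0611), and in the authors' table, where Lpp passed and Hes1 did not (0.38, 0.0637), and with the mean of a gene's probes it was 3, Lpp being added. In mild kidneys there were 3 with weights and 2 with only the groups compared, in moderate 2 with weights and 1 at an adjusted p under 0.1, and 0 to 0 in both without single kidneys, as for severe against mild and the slope.

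Replicate numbers do not pair these kidneys. With the number as a replicate block 2117 genes passed, 0 flanking genes passed in all mgb-/- kidneys and 0 in severe kidneys (Opa1 -0.56, adjusted p = 0.0701, Hes1 0.53, adjusted p = 0.0603). Of 24 kidneys 6 correlated best with their own number.

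The median log2 change from Cldn1 to Atp13a4, 1.28, was 1.12 with median scaling, 0.63 with normexp, 0.78 with the authors' table, 0.55 without a filter and 0.93 with the filter on all arrays, and 1.22 to 1.32 without single kidneys. That of the flanking genes, 0.08, was -0.08 with median scaling and -0.01 to 0.10 without single kidneys. From Opa1 to Acap2 the median was 0.07 with quantile normalization, -0.15 with median scaling and 0.08 with the filter on all arrays (-0.01 to 0.02 without single kidneys), and from Bcl6 to P3h2 it was 0.31 with the mean of a gene's probes (0.05 to 0.15). Without centring on group means, r was 0.47 for Bcl6 and Ahdc1, 0.72 and 0.53 for Lpp with Rpl13 and Rplp2, 0.92 for P3h2 and Klk1b22, 0.97 for Opa1 and Mrpl27, 0.74 and 0.38 for Hes1 with Prickle1 and Foxd2, 0.83 for Atp13a3 and Inpp5f, 0.65 for Lsg1 and Rps7, 0.77 and 0.69 for Xxylt1 with Phldb1 and Map4, and 0.75 and 0.79 for Acap2 with Tent2 and Itsn2. The cause of these shifts was not tested. Signal over background limits Atp13a5, Lrrc15 and Gp5, which could not be tested.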
